A study of Homo sapiens with 2 samples.

Results

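The miR-30 family was followed in 22Rv1 cells, a human cell line derived from prostate carcinoma and positive for the androgen receptor, with and without luteolin, a plant flavone. The family members described here were chosen by name. They comprise the 5 mature 5p arms (hsa-miR-30a-5p, hsa-miR-30b-5p, hsa-miR-30c-5p, hsa-miR-30d-5p and hsa-miR-30e-5p) and 3 of the 3p arms (hsa-miR-30a-3p, hsa-miR-30d-3p and hsa-miR-30e-3p), 8 of the 2565 miRNAs on the array. One culture was nontreated and the other received 25 µM luteolin, and RNA of both was taken at 48 h. A condition had 1 single-colour array with 1 spot for each miRNA. With 1 array for each condition there was no replicate, so no test between the conditions was possible and no p-value is given. The differences describe this pair of arrays, and their number limits the precision.

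A miRNA guides the silencing complex to messenger RNAs that pair with its seed, bases 2 to 8 from the 5′ end, so miRNAs with the same seed can repress the same transcripts. The miR-30 5p arms share a seed and form 1 family, made from hairpin genes that lie in pairs. They are known for repressing genes of the epithelial-mesenchymal transition, such as SNAI1 and VIM, and, in prostate cancer cells, the transcription factor ERG. The 3p arms come from the other side of the same hairpins, are usually the less abundant product, and carry other seeds.

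The sequences of the arms are shown first because probes for sister arms can differ by a single base. Of the 8 members, 5 were found in the RefSeq miRNA table (GRCh38.p14), and hsa-miR-30b-5p, hsa-miR-30d-5p and hsa-miR-30d-3p are given by name. The mature 5p arms follow, written 5′ to 3′ with the seed in capitals.
hsa-miR-30a-5p: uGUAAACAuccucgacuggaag
hsa-miR-30c-5p: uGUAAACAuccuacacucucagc
hsa-miR-30e-5p: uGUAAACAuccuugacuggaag
All 3 carry the seed GUAAACA, and among the 2370 mature miRNAs of the RefSeq table used here these 3 (0.127%) held it. This count leaves out hsa-miR-30b-5p and hsa-miR-30d-5p, which have no entry there. They are identical over their first 12 bases. Counted from 1 at the 5′ end, hsa-miR-30a-5p and hsa-miR-30e-5p differ at a single position (C13U, the base of 30a first), while hsa-miR-30a-5p and hsa-miR-30c-5p differ at 5 of 22 positions. The 3p arms of the 30a and 30e hairpins have the seed UUUCAGU, held by these 2 of the 2370 entries. The seed of hsa-miR-30d-3p, which has no entry, was not compared.
hsa-miR-30a-3p: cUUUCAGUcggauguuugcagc
hsa-miR-30e-3p: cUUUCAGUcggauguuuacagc
These arms also differ at 1 position (G18A, the base of 30a first). How far a probe also bound its sister arm was not tested.

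The hairpins show how both arms lie in 1 precursor, with the mature arms in capitals.
MIR30A: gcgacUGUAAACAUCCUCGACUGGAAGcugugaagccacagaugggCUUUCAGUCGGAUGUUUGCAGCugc
MIR30E: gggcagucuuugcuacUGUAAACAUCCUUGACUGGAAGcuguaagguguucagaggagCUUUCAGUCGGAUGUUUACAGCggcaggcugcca
MIR30A lies at chr6:71403551-71403621 on the minus strand of GRCh38.p14, 26519 bases from MIR30C2 (chr6:71376960-71377031), and no other gene of the RefSeq table spans either. MIR30E lies at chr1:40754355-40754446 on the plus strand, 2837 bases from MIR30C1 (chr1:40757284-40757372), and both lie within NFYC, a gene for a subunit of the CCAAT-binding factor NF-Y. MIR30C1 and MIR30C2 give the same mature 5p arm, so the hsa-miR-30c-5p spot reads both loci together.

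The signal floor has to be set before the members are read. Blank spots averaged 81.0 units of raw signal on the control array and 66.2 on the other, after trimming 5% at each end, with SDs of 1.48 and 0.591. A miRNA counted as detected above that mean plus 2 SD, a limit of 84.0 and 67.3 units. A stricter floor was the highest of 32 Negative Control spots, 93.7 units for control and 69.4 for luteolin. Of the 8 members, 7 were detected on both arrays and 4 exceeded every Negative Control spot on both. Over the whole array these counts were 701 and 310 of 2565. The 4 miRNAs typical of prostate epithelium (hsa-miR-141-3p, hsa-miR-200c-3p, hsa-miR-375 and hsa-miR-148a-3p) all passed that stricter floor on both arrays. The nearest to it was hsa-miR-375, at 96.0 units on the control array. Of 11 markers of blood, endothelial, muscle, stromal, liver and neural cells, 1 was detected on both arrays, the red-cell miRNA hsa-miR-451a. Its control signal of 94.1 units lay just above the highest Negative Control spot. The blood marker hsa-miR-142-3p was detected on the control array alone and the liver marker hsa-miR-122-5p on the luteolin array alone, both under the stricter floor.

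Before any scaling between the arrays, the 5p arms went in different directions. The luteolin array was dimmer on this basis, with a median log2 ratio of -0.61 over the 701 miRNAs detected on both arrays. The miRNA hsa-miR-30b-5p, reported to repress the glycosyltransferase GALNT7 in melanoma cells, gave 34.1 ± 2.9 units above the blanks in control cells and 51.1 ± 3.2 after luteolin. The signal of hsa-miR-30c-5p, which represses the matrix factor CTGF in heart cells, was 42.1 ± 3.4 and 51.1 ± 3.2. Both were brighter on the luteolin array, by an unscaled log2 ratio of 0.58 (interval at 1.96 standard errors 0.28 to 0.89) for 30b and 0.28 for 30c, whose interval of -0.01 to 0.57 includes 0. The signal of hsa-miR-30a-5p, known to repress the autophagy gene BECN1, was 32.4 ± 2.8 without and 31.2 ± 2.0 with luteolin, a gap smaller than the error of either spot. The signal of hsa-miR-30d-5p, reported to repress the chaperone gene HSPA5 in prostate cancer cells, ran the other way. It went from 49.99 ± 4.0 on the control array to 38.9 ± 2.5, an unscaled log2 ratio of -0.36 (-0.65 to -0.07). That ratio still lay above the median of -0.61 over the 701 miRNAs, though its interval includes this median. The signal of hsa-miR-30e-5p lay close to the floor at 11.7 ± 1.7 and 13.6 ± 1.0 units. Its raw control signal, 92.7 units, lay 1.02 under the highest Negative Control spot and above 15 of the 16 spots of Negative Control 1, while on the luteolin array, at 79.8, it was above all of them. Each error is a standard error that joins the blank SD with the coefficient of variation of repeated bright control spots, 7.34% (control) and 6.23% (luteolin), and it covers neither culture nor array variation.

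**Figure D1:**
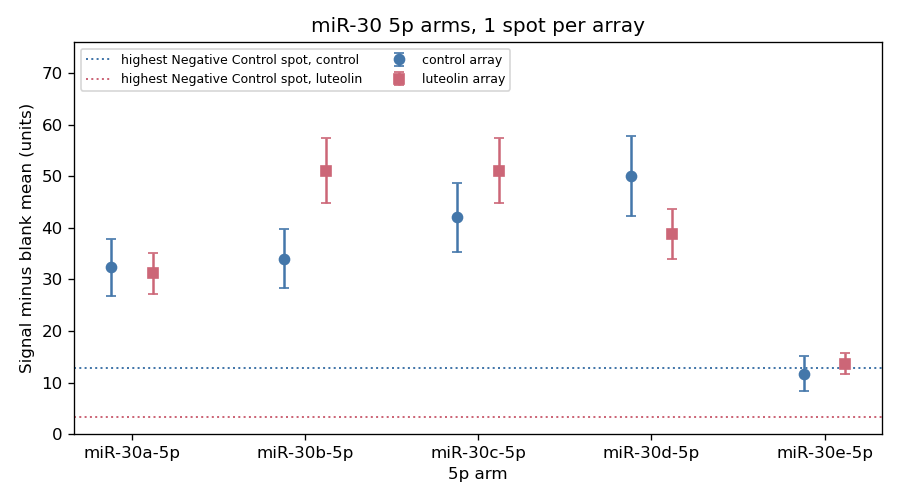
Signal minus the mean of the blank spots (units, y axis) for each miR-30 5p arm (x axis) on the control array (circles) and the luteolin array (squares), 1 spot each. Bars are 1.96 spot standard errors, and dotted lines mark the highest Negative Control spot of each array minus its blank mean. The arms of 30b and 30c are brighter on the luteolin array (51.1 units each), that of 30d is dimmer (38.9 against 49.99), and 30e lies near the control array's floor. The signals are not scaled between the arrays, and the median unscaled log2 ratio of the 701 miRNAs detected on both is -0.61.

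The question the pair of arrays addresses is which of these levels differ after luteolin, and that depends on how the arrays are scaled. The authors multiplied the blank-subtracted control values by 3.03 and those of the luteolin array by 4.63, which raises every luteolin over control ratio by 0.61 on the log2 scale and puts the median log2 ratio of the 701 miRNAs detected on both arrays at 0.00. On this scale, called the authors' scale, the level of hsa-miR-30b-5p was 103 without and 237 with luteolin, which is 2.29-fold higher, or a log2 ratio of 1.19 ± 0.15. The level of hsa-miR-30c-5p was 128 and 237, a log2 ratio of 0.89 ± 0.15. That of hsa-miR-30a-5p was 98.2 and 145, a log2 ratio of 0.56 ± 0.16. All 3 intervals, at 1.96 standard errors, lay above 0. The level of hsa-miR-30d-5p was 152 and 180, a log2 ratio of 0.25 ± 0.15, whose interval of -0.04 to 0.54 includes 0. The listed values of hsa-miR-30e-5p were 35.6 and 63.2, a log2 ratio of 0.83 ± 0.24. Its control spot was below the Negative Control floor, which is 38.7 on this scale. Against that floor the luteolin value gave a bound of at least 1.63-fold. This bound rests on the authors' scaling and takes both spots as free of error. The interval of the listed ratio at 1.96 standard errors, 0.36 to 1.29 on the log2 scale, also holds differences smaller than the bound. It rests on the blank SD. With the larger spread of the Negative Control 1 spots in its place, the standard error was 0.37, so the interval would be wider.

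By size, 1 of the 7 members detected on both arrays, hsa-miR-30b-5p, reached a 2-fold higher level after luteolin, and 0 a 2-fold lower one. Of all 701 miRNAs detected on both arrays, 13.4% reached it upwards and 5.14% downwards. Among the 4 members above every Negative Control spot the count was again 1 higher and 0 lower, beside 18.4% and 0.645% of the 310 miRNAs that met this floor. The members' share past the size rule was therefore near that of the other miRNAs. The 5p arms had a median log2 ratio of 0.72 over the 4 above the floor, against 0.04 for the 310, and all 4 were above 0 while 162 of the 310 were. Over all 5 the median was 0.83, which is the listed value of hsa-miR-30e-5p itself.

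Within the distribution of the 310 ratios, hsa-miR-30b-5p had 39 miRNAs with a larger ratio, hsa-miR-30c-5p 67, hsa-miR-30a-5p 85 and hsa-miR-30d-5p 122. The 4 thus lay in the upper part of that distribution, spread from 12.6% to 39.4% from its top. The 31 other miRNAs whose mean log2 level fell in the range of the 4 had a median of 0.10, with quartiles of -0.27 and 1.05. This range was set after the values were seen.

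**Figure D2:**
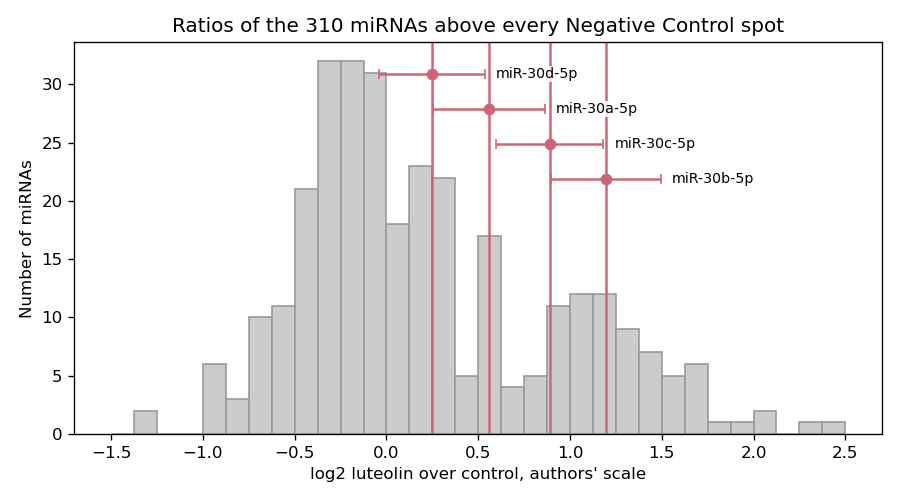
Histogram of the log2 luteolin over control ratio on the authors' scale (x axis) for the 310 miRNAs above every Negative Control spot on both arrays (y axis, number of miRNAs), with the 4 miR-30 5p arms that met this floor as lines and points with bars of 1.96 spot standard errors. The arms run from 0.25 for 30d to 1.19 for 30b, all to the right of the overall median of 0.04.

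Under other scalings the size and, for some arms, the sign of these ratios moved. Ratios of hsa-miR-30b-5p and hsa-miR-30c-5p, and the listed ratio of hsa-miR-30e-5p, were above 0 under all 9 alternatives to the authors' scale. They ran from 0.39 to 2.01 for 30b, from 0.23 to 1.70 for 30c and from 0.13 to 1.64 for 30e. Counted among the 9 are the deposited series table, which repeats the authors' values, and a pseudocount, which cannot change a sign. The ratio of hsa-miR-30a-5p was -0.05 with no scaling between the arrays and above 0 under the other 8. The ratio of hsa-miR-30d-5p was below 0 under 5 of the 9, at -0.36 with no scaling, and reached 1.06 with spike-in scaling. The median of the 701 moved too, to -0.61 with no scaling and -0.26 with median or 75th percentile scaling. The 30d ratio lay above it in each of these. With normexp it lay below the median, at -0.080 against -0.016 (offset 50) and -0.12 against -0.038 (offset 16). Spike-in scaling sets the 2 Spike Control probes equal. Their blank-subtracted signal was 2.68-fold higher on the control array, and under it 6 of 7 members were at least 2-fold higher, beside 40.1% of all 701 miRNAs, with the median of the 701 at 0.81. Without the authors' adjustment of the luteolin array 4 of 7 members were, beside 20.5% of the 701. Which scaling reflects the RNA content of the cells was not tested. With background correction by normexp at an offset of 50 and quantile normalization, 0 members reached 2-fold, and 0.143% of the 701 did. There the ratios of 30b, 30c, 30a and 30d were 0.39, 0.23, 0.08 and -0.08. This setting changes the background method, the offset and the normalization at once, and their shares were not separated.

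**Figure D3:**
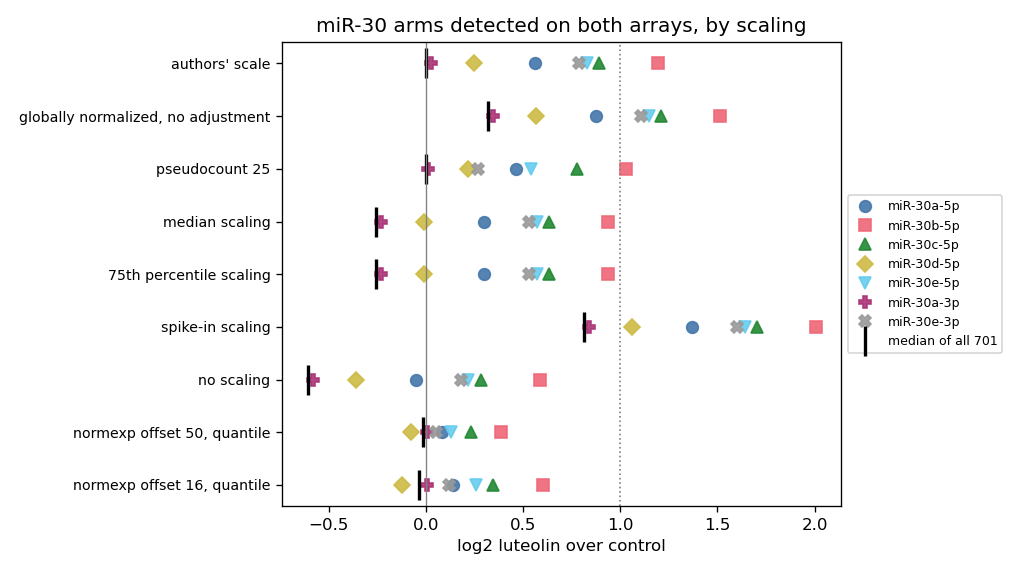
Log2 luteolin over control (x axis) of the 7 miR-30 arms detected on both arrays under the authors' scale and 8 other settings (y axis), with the median of all 701 miRNAs as a black bar and dotted line at a log2 ratio of 1. The set slides with the plain scalings and narrows with the pseudocount and the normexp settings. In each, 30b is the highest and 30d the lowest of the 4 arms above the Negative Control floor. The ratios of 30d-5p, 30a-5p and 30a-3p cross 0.

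Differences between members do not depend on a factor common to an array, so they can be compared without a choice of scaling. The order by log2 ratio of the 4 arms above the floor, from 30b through 30c and 30a to 30d, was the same under all 9 settings drawn, while 30e, with only a bound, has no fixed place in it. Most of these settings are common factors, which cannot alter the order. The ratio of hsa-miR-30b-5p exceeded that of hsa-miR-30d-5p by 0.95 ± 0.21 on the log2 scale, a 1.93-fold gap with an interval of 0.53 to 1.36. This pair, the ends of the order, was picked after the values were seen. No interval here is adjusted for the 6 pairs compared. The ratio of hsa-miR-30c-5p exceeded that of hsa-miR-30d-5p by 0.64 ± 0.21, and the ratio of hsa-miR-30b-5p exceeded that of hsa-miR-30a-5p by 0.64 ± 0.22. Of the 6 pairs among the 4 arms above the floor, these 3 differed by more than 1.96 spot standard errors. The other 3 did not, with gaps of 0.30 for 30b over 30c (interval -0.11 to 0.72), 0.33 for 30c over 30a (-0.09 to 0.75) and 0.31 for 30a over 30d (-0.11 to 0.73). Neighbours in the order of these 4 were not set apart by the spot error, while its ends were. With the larger spread of the Negative Control 1 spots in place of that of the blanks, a choice made after the data were seen, the same number of pairs, 3 of 6, passed. The 0.95 became 0.47 with the offset of 50.

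The order can be set beside the genomic pairs. MIR30B and MIR30D lie 4268 bases apart within the bounds of ZFAT, a zinc-finger gene, and their 5p arms were the 2 ends of the order of the 4, at 1.19 and 0.25. Of the NFYC pair, 30c stood at 0.89 and the control spot of 30e lay under the floor, so no gap between them is given. Those of the MIR30A pair stood at 0.56 (30a) and 0.89 (30c), the latter shared with the NFYC pair through the common 30c arm.

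The 3p arms were at the limit of what the arrays could measure. The raw signal of hsa-miR-30a-3p was 86.0 units on the control array, above 3 of the 16 Negative Control 1 spots, and 69.5 on the luteolin array, 0.13 units above the highest of them. That of hsa-miR-30e-3p was 84.2, above 1 of the 16, and 69.8, which was 0.38 units above the highest. On the luteolin array 2 of the 320 blank spots were brighter than hsa-miR-30a-3p and 1 was brighter than hsa-miR-30e-3p. The third, hsa-miR-30d-3p, gave 83.5 and 64.9 units and was not detected on either array, and 306 of 320 blank spots of the luteolin array were brighter. No 3p arm passed the Negative Control floor on both arrays, and because the floor itself lies lower on the luteolin array, the passing of it there alone does not compare the levels.

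The listed values of hsa-miR-30a-3p on the authors' scale were 15.2 and 15.5, a log2 ratio of 0.03 ± 0.52, and those of hsa-miR-30e-3p were 9.67 and 16.7, a log2 ratio of 0.79 ± 0.73. Their median was 0.41. With the spread of the Negative Control 1 spots in place of that of the blanks, the standard errors were 0.85 (30a-3p) and 1.26 (30e-3p). Against the control floor of 38.7 neither gave a bound above 1, so the direction of the 3p arms is not defined at this signal. No difference in ratio between the 5p and 3p arms of a hairpin is given, since at least 1 arm of each lies under the floor. Levels of the arms were not set against each other, since each probe has its own brightness. Of the other 3p arms, which are no members of the group, hsa-miR-30c-1-3p (84.4 and 66.3 units) was detected on the control array alone, by 0.47 units, and hsa-miR-30b-3p (81.4 and 66.6) and hsa-miR-30c-2-3p (81.7 and 66.2) on neither. The arms hsa-miR-30c-1-3p and hsa-miR-30c-2-3p share the seed UGGGAGA, which differs from that of the 30a and 30e 3p arms.

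**Figure D4:**
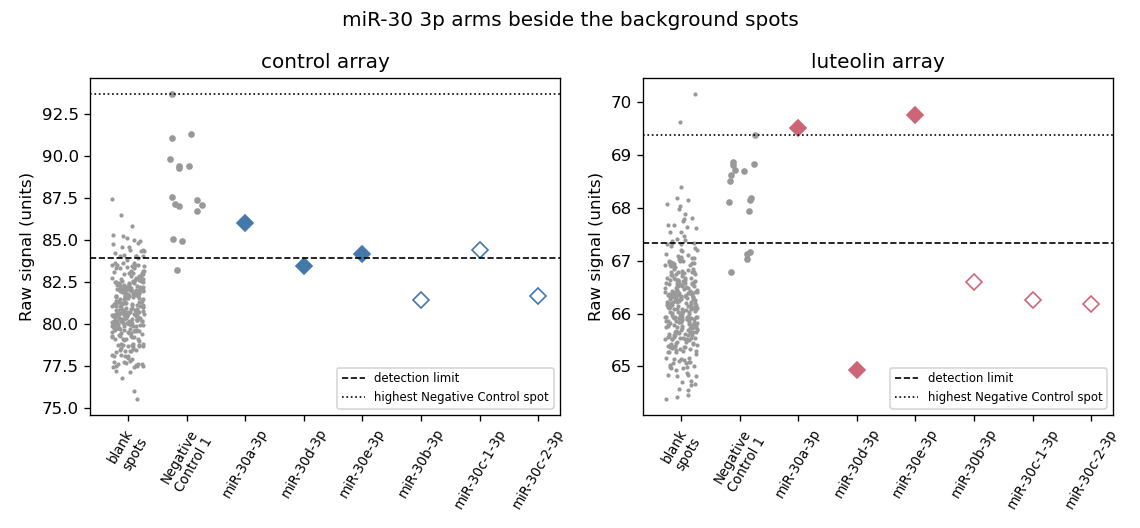
Raw signal (units, y axis) of the 3 member 3p arms (filled diamonds) and the 3 other miR-30 3p arms (open diamonds) beside the 320 blank spots and the 16 Negative Control 1 spots (grey points) on the control array (left) and the luteolin array (right), with the detection limit dashed and the highest Negative Control spot dotted. On the control array every 3p arm lies below the dotted line, and on the luteolin array 30a-3p and 30e-3p lie just above it.

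The let-7 and miR-29 families were set beside miR-30 as a comparison chosen with earlier results known. The 9 let-7 and miR-98 5p arms, which restrain growth genes such as LIN28B and HMGA2, had a median log2 ratio of 1.22 on the authors' scale, from 0.70 to 1.67, and 8 of 9 were at least 2-fold higher. The 3 miR-29 3p arms, which repress collagen genes, had a median of 1.64, from 1.53 to 2.01. The 4 miR-30 5p arms above the floor, with 1.19 at the top, lay below the lowest miR-29 arm, and of these hsa-miR-30b-5p and hsa-miR-30c-5p lay within the range of let-7. These families have 1 value for each arm and condition, so the difference between them was not tested.

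Of 8 miRNAs that, like miR-30, hold down the mesenchymal state in epithelial cells, 4 were detected on both arrays and 3 passed the stricter floor on both. The ratio of hsa-miR-141-3p, a repressor of ZEB1 and ZEB2, was 1.96 ± 0.14, above those of the 4 miR-30 arms that met the floor. Its relatives hsa-miR-200b-3p and hsa-miR-200c-3p stood at 0.00 ± 0.16 and 0.14 ± 0.14, below those of the same 4 arms. Their intervals at 1.96 standard errors, -0.32 to 0.31 and -0.13 to 0.41, include the 0.25 of hsa-miR-30d-5p. The tumour suppressor hsa-miR-34a-5p was detected on both arrays but lay under the control floor, and was at least 1.70-fold higher against it, under the same assumptions as the bound above. The 3 miRNAs above the floor with a log2 ratio nearest to the median of 0.83 over all 5 arms were hsa-miR-6808-5p and hsa-miR-1260b, both at 0.82, and hsa-miR-4319 at 0.81. Of 306 candidates, 10 came within 0.1 of that median. Likeness over 2 arrays is 1 number for each miRNA and says little of a shared pattern.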

How the data were processed

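Total RNA of 1 control and 1 luteolin culture was labelled with Cy5 and hybridized to Toray 3D-Gene arrays, per the labels. The deposited files hold intensity on a linear scale as raw, background-subtracted and globally normalized columns, with a further adjusted column for the luteolin array, per the file headers. The scanner and software are not given in the sources used here. Recomputed from the values, the authors subtracted the trimmed blank mean (largest deviation under the rounding of the files) and listed miRNAs above it plus 2 SD, which explained all 2565 entries of each array. The deposited series table held the same intensity values for 811 control and 984 luteolin entries.

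Ratios are log2 luteolin over control on the deposited scale, without pseudocount. Alternatives used other scalings, a pseudocount of 25, and normexp (limma 3.58.1, R 4.3.3) with offsets of 50 or 16 and quantile normalization. Python 3.11.15, numpy 2.4.6, pandas 2.3.3 and matplotlib 3.10.9 served for the rest, and the procedure was tested on simulated arrays. The simulated noise used the same blank SD and coefficient of variation as the standard errors. It therefore checks the calculation and not whether these errors cover the real variation. Named miRNAs were the members, the other family arms, the 3 nearest in ratio, and the fixed comparison and marker lists. The members and lists were chosen with earlier results of these data known.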

Additional observations from a re-analysis of the deposited data

How the results depend on the processing

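Over 9 alternatives, of which the deposited series table repeats the authors' values, 54 of 63 ratios of single members were above 0. The 9 that reversed were hsa-miR-30d-5p at -0.012 with median scaling, -0.012 with 75th percentile scaling, -0.36 with no scaling, -0.080 with normexp at an offset of 50 and -0.12 at an offset of 16, hsa-miR-30a-5p at -0.051 with no scaling, and hsa-miR-30a-3p at -0.23 with median scaling, -0.23 with 75th percentile scaling and -0.58 with no scaling. The median of the 5p arms, 0.83 on the authors' scale, was above 0 under all 16 alternatives, leaving out each arm included. It moved beyond its spot error to 1.64 with spike-in scaling, 0.22 with no scaling, 0.13 with the offset of 50 (also over all members, detected or not) and 0.26 with the offset of 16. Leaving out an arm or keeping only those above the floor could not bring it to 0, since every 5p arm was above 0 on the authors' scale. The median of the 3p arms, 0.41, was -0.20 with no scaling and had no value above the Negative Control floor. The count of members at least 2-fold higher, 1, was 4 without the authors' adjustment (144 of all 701 miRNAs there), 6 with spike-in scaling (281 of 701), and 0 with median or 75th percentile scaling (52 of 701 each), no scaling (22), the offsets of 50 (1) and 16 (4), all members on the offset of 50, or hsa-miR-30b-5p left out. The shifts between plain scalings are the difference of their common factors. Median and 75th percentile scaling equalize the median or 75th percentile of the signals of the 701 miRNAs, not their median ratio. The median log2 ratio of the 701 was -0.26 under either. The normexp settings change background method, offset and normalization at once, and the cause of their shifts was not tested. The deposited series table gave the same values as the array tables, and a pseudocount cannot change a sign, so neither could reverse a ratio. No paired analysis was possible because each condition had 1 array. The signal over background limits the 3p arms and hsa-miR-30e-5p most.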

Other observations

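The ratios of the 310 miRNAs above every Negative Control spot were not spread evenly around their median. On the authors' scale 148 were below 0, 68 lay between 0 and 0.5, 37 between 0.5 and 1, 40 between 1 and 1.5, and 17 at 1.5 or more. The 4 miR-30 arms among them were spread over 3 of these bands, with hsa-miR-30d-5p between 0 and 0.5, hsa-miR-30a-5p and hsa-miR-30c-5p between 0.5 and 1, and hsa-miR-30b-5p between 1 and 1.5. The bands were drawn after the values were seen.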
